A study of Arabidopsis thaliana with 4 samples.

Results

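The expansin superfamily of *Arabidopsis thaliana* was examined in whole roots of 2 genotypes, as the rows of the deposited gene table whose locus is 1 of 36 named loci: α-expansins (EXPA), β-expansins (EXPB), expansin-like A (EXLA) and expansin-like B (EXLB) genes. Of these, 35 are among the 28642 loci of the table, namely 25 *EXPA*, 6 *EXPB*, 3 *EXLA* and 1 *EXLB* genes, and *EXPA19*, a pseudogene in RefSeq, was not analysed here. The study asked which genes depend on the histone methyltransferase activity of ATX1 during root development. It compared the wild type (WT, accession Wassilewskija, Ws) with *atx1setm*, which carries the *atx1-1* mutation, also in Ws, together with a form of ATX1 whose catalytic SET domain was made inactive by tyrosine-to-alanine changes. The promoter of that form is not given in the sources used here. There were 2 biological replicates of each genotype. The sources do not say whether these were separate cultures, so it is not known whether the p-values cover the spread between cultures. Seedlings were 10 days old by the labels, which also state 8 to 10 days for the extracted roots, and 8 days old by the methods. In this RNA-Seq experiment *atx1setm* was the only mutant.

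Expansins are wall proteins that loosen the contacts between cellulose and other wall polymers without cutting them, and they act at the acidic pH that plasma membrane proton pumps create. α-Expansins and β-expansins have wall-loosening activity, whereas expansin-like proteins are assigned to the superfamily by sequence and their activity is less clear. In roots, expansins take part in cell elongation, in the outgrowth of root hairs and in the emergence of lateral roots (LRs) through overlying tissues.

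Before any level is given, the promoters of 4 genes are shown. *EXPA7* and *EXPA18* are the root hair expansins and were the 2 members with a lower level in the mutant at an unadjusted p under 0.05, although neither passed an adjusted test there, and *EXPA17* and *EXPB2* had the highest fold changes. Each sequence is the 250 bases before the gene start in RefSeq (build TAIR10.1), on the strand of the gene (plus in each case), and capitals mark matches to the root hair-specific element, a motif known from promoters of root hair genes and bound by the bHLH regulator RSL4.
EXPA7 (chr1:4276255-4276504): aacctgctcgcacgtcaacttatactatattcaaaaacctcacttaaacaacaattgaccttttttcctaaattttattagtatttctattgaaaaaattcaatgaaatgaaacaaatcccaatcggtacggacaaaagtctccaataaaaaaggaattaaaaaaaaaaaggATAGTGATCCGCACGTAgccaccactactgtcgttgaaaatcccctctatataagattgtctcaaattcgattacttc
EXPA18 (chr1:23331313-23331562): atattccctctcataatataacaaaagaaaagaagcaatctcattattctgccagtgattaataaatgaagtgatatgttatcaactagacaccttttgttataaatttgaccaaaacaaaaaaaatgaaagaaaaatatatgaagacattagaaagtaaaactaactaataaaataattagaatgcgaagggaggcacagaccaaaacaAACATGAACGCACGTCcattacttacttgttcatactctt
EXPA17 (chr4:700316-700565): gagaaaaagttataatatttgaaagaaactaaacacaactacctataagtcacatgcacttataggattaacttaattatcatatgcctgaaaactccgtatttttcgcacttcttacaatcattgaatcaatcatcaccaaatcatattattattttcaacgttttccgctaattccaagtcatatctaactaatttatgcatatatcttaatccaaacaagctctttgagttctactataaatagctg
EXPB2 (chr1:24427016-24427265): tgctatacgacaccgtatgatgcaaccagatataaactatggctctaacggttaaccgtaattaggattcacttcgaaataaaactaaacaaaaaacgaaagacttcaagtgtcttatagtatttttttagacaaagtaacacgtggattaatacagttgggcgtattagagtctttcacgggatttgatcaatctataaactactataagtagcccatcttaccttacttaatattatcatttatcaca
The match in *EXPA7* lies 78 to 62 bases before the start, and that in *EXPA18* 40 to 25 bases before it, both on the strand of the gene. These were the only matches among the 35 members with a protein-coding annotation (2 members, 5.71%), whereas 207 of 27443 nuclear protein-coding genes (0.754%) hold one in a window of the same length. The element was described partly from these promoters, so the matches are not independent of the known role of the genes. The *EXPA18* window overlaps the short annotated locus AT1G62978. The auxin response motif TGTCTC was found, on either strand, in 4 members (11.4%, *EXPA5*, *EXPA6*, *EXPA7* and *EXPA10*) against 10.9% of all promoters. The related TGTCGG was found in 2 members (5.71%, *EXPA12* and *EXPB3*) against 4.16%. *EXPA17* and *EXPB2* held none of these letters in the window shown, from which nothing follows about the factors that bind them.

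Each library held between 38574293 and 46439122 exon reads, of which expansins took 0.101% to 0.154% in 3 libraries and 0.197% in *atx1setm* replicate 2. *ATX1* itself had 731 and 388 exon reads in WT replicates 1 and 2 and 475 and 270 in the mutant, where reads of the altered form would map to the same locus. These exon reads overlap between genotypes. Its intron reads were 0 and 2 in the WT and 44 and 43 in *atx1setm*, and the cause was not tested. All 7 markers of root tissues had reads in each library, with summed levels of 482 and 492 CPM (exon reads scaled to a common library size, with TMM factors) in the WT and 452 and 536 CPM in *atx1setm*. Green shoot markers summed to 160 and 263 CPM in the WT and to 99.5 and 299 CPM in the mutant, none of the 7 at 0 reads, so that replicate 2 was the higher in both genotypes. In whole roots, fewer cells of a type and less RNA per cell cannot be told apart.

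Of the 35 members, 26 had enough reads to be tested: 19 *EXPA*, 3 *EXPB*, 3 *EXLA* and 1 *EXLB*. The 9 others were *EXPA2*, a seed germination expansin, 5 genes of the tandem cluster *EXPA21* to *EXPA26*, and *EXPB4* to *EXPB6*. Among these, 7 had 0 exon reads in every library, which allows up to 0.0646 to 0.0778 CPM by counting error alone, and *EXPB5* and *EXPB6* had at most 3 reads in a library. The tandem cluster spans 14363 bases of chromosome 5, from 15726243 to 15740605 (TAIR10.1). Its members *EXPA22* and *EXPA26* share 97.7% of their aligned coding bases and *EXPA23* and *EXPA25* 97.5%. Only 45.5% to 66.0% of the 50-base windows in the exons of these 4 genes occur once in the genome, and because the table counts uniquely mapped reads, a shared read would be lost. For *EXPA24*, every such window is unique, and it also had 0 reads. All the 26 tested members had at least 98.7% unique windows, the lowest being *EXLA3*.

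Levels per length differed over several orders of magnitude between members. RPKM (the same scaled reads per kilobase of exon) were computed from the counts with TMM scaling. *EXPA4* had 158 and 279 RPKM in the WT and 356 and 653 in *atx1setm*, and *EXPB3* had 160 and 270 in the WT and 182 and 301 in *atx1setm*. These 2 genes made up 41.1% to 52.6% of the summed expansin level of a library. Next by mean level came *EXPA15*, with 56.2 and 104 RPKM in the WT and 71.4 and 149 in the mutant, and *EXPA9*, with 47.7 and 67.6 in the WT and 76.1 and 138 in the mutant. At the other end, *EXPA5*, which promotes leaf growth, had 0.142 and 0.0598 RPKM in the WT and 0.183 and 0.282 in the mutant. In *EXPA21*, the tested gene of the tandem cluster, the 4 libraries lay between 0.358 and 0.414 RPKM.

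**Figure D1:**
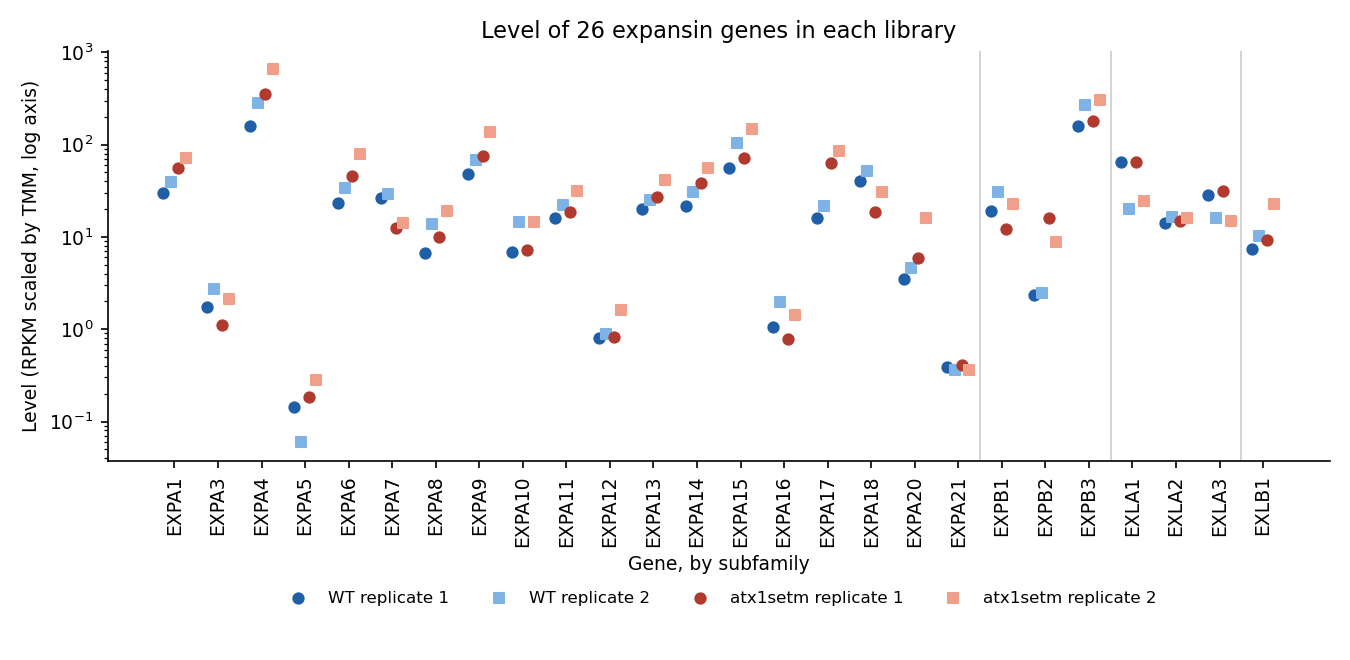
Level of each tested expansin gene (26 genes on the x axis, grouped by subfamily) in each of the 4 libraries, in RPKM scaled by TMM on a log axis; each point is 1 library. *EXPA4* reaches 653 RPKM in *atx1setm* replicate 2, and *EXPA7* is the gene at 26.3 and 29.4 RPKM in the WT and 12.6 and 14.2 in the mutant.

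Adjusted over all genes, 0 expansins were higher and 0 lower in *atx1setm* by edgeR's quasi-likelihood test, which called 0% of the 20714 genes tested (0 in each direction). At an unadjusted p under 0.05 it had 7 of 26 expansins higher, or 26.9%, against 4.93% of all genes tested, and 2 lower, or 7.69%, against 4.78% of all genes. The 7 were *EXPA1*, *EXPA4*, *EXPA6*, *EXPA14*, *EXPA17*, *EXPA20* and *EXPB2*, and the 2 were *EXPA7* and *EXPA18*. By edgeR's exact test adjusted over all genes, the test closest to that of the study, 2 expansins passed as higher, *EXPA17* and *EXPB2*, against 1.69% of all genes, and 0 as lower, against 2.23%. DESeq2 called the same 2 genes higher (1.46% of all genes) and 0 lower (1.75%). *EXPA17* and *EXPB2* had already been listed by the study as higher in *atx1setm*, from these same libraries. That they passed here was therefore largely known in advance, and the shares of all genes are no independent measure for them. Before adjustment, with the same limit of 0.05, the exact test and DESeq2 each had 8 expansins higher (5.93% and 5.76% of all genes), the additional gene being *EXPA9*, and the same 2 lower (5.13% and 4.46%). The 7 higher members of the quasi-likelihood test became 2 without WT replicate 1, 5 without WT replicate 2, 13 without *atx1setm* replicate 1 and 4 without *atx1setm* replicate 2, and the 2 lower became 0, 0, 1 and 3.

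**Figure D2:**
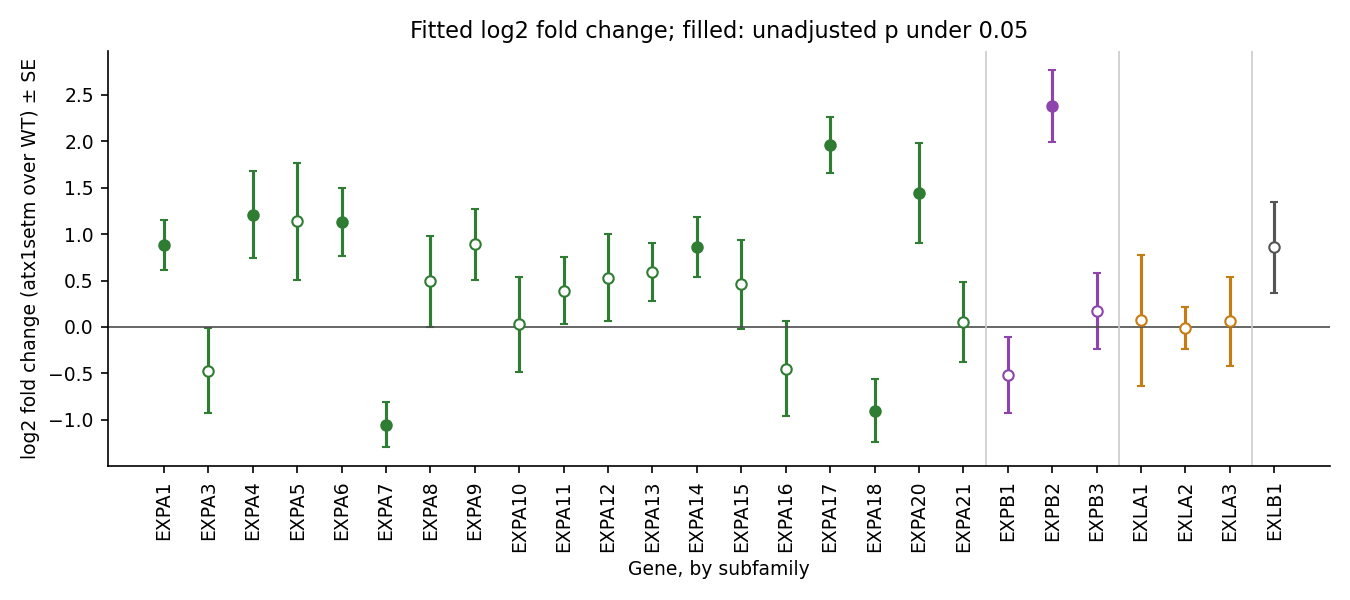
Fitted log2 fold change of *atx1setm* over WT for each tested expansin gene, by subfamily; bars are the SE from the quasi-likelihood fit with 2 libraries of each genotype, and filled points have an unadjusted p under 0.05. The highest are *EXPB2* at 2.38 and *EXPA17* at 1.96, the lowest are *EXPA7* at −1.05 and *EXPA18* at −0.90, and the 3 *EXLA* genes lie near 0.

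Both root hair expansins had lower levels in *atx1setm*, but neither passed the quasi-likelihood test, the exact test or DESeq2 after adjustment. *EXPA7* (AT1G12560, chromosome 1 of TAIR10 from 4276519 to 4277899), which loosens the wall where the hair grows out, had 27.2 and 30.4 CPM in WT replicates 1 and 2 and 13.0 and 14.7 CPM in the mutant. Both mutant libraries lay below both WT libraries, and replicates were close to each other. The mean was 28.8 ± 2.28 CPM in the WT and 13.9 ± 1.20 CPM in the mutant (SD, n = 2 each). On the log2 scale this was −1.05 (SE 0.24), with adjusted p = 0.238 by the quasi-likelihood test of edgeR. By the exact test of edgeR the adjusted p was 0.0526, and over the alternatives it ran from 1.47e-04 to 1.0. *EXPA18* (AT1G62980, chromosome 1 from 23331676 to 23333110), its closest relative in the family (75.4% of aligned coding bases shared), had 40.7 and 51.7 CPM in the WT and 18.6 and 30.9 CPM in *atx1setm*. Again the genotypes did not overlap, although the mutant replicates stood further apart than those of *EXPA7*. The log2 fold change was −0.90 (SE 0.34), with adjusted p = 0.496 by edgeR's quasi-likelihood test (7.29e-04 to 1.0 over the alternatives). Non-overlap in this direction was seen for 2 of 26 expansins (7.69%) and for 20.0% of all genes tested.

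A list of 8 root hair genes was lower as well, all 8 members passing the exact test adjusted over all genes and an unadjusted p of 0.05 in the quasi-likelihood test (2.23% and 4.78% of all genes tested were lower by these). Their summed level was 907 and 934 CPM in the WT and 222 and 240 CPM in *atx1setm*, none was at 0 reads, and the median log2 fold change was −1.92. The 2 with the smallest p were *LRX1*, a leucine-rich repeat extensin (log2 fold change −2.24, SE 0.24, adjusted p = 0.0902 by the quasi-likelihood test), and *PRP3*, a proline-rich wall protein (−1.96, SE 0.27, adjusted p = 0.113). *RSL4* had 9.33 and 7.41 CPM in the WT and 1.84 and 1.97 CPM in *atx1setm*. The study had already listed *RSL4*, *COBL9*, *PRP3*, *LRX1* and *RHS10* as lower in *atx1setm*, from these same libraries, but not *RHD6*, *ADF8* or *MRH6*. That the listed genes passed here was therefore largely known in advance. The shares of all genes are thus no independent measure for this list. The part of root hair number in the levels of *EXPA7* and *EXPA18* was not tested.

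Of 3 expansins known from LR formation, *EXPA17* rose in the mutant by the exact test and DESeq2, whereas *EXPA14* and *EXPA1* passed no adjusted test of these or of the quasi-likelihood fit. *EXPA17* (AT4G01630, chromosome 4 of TAIR10 from 700653 to 701527), which is expressed in the tissue overlying LR primordia and acts downstream of the LR regulator LBD18, had 12.3 and 16.7 CPM in the WT and 48.7 and 64.7 CPM in *atx1setm*. Both mutant libraries were far above both WT libraries, with replicate 2 the higher in each genotype. The level rose from 14.5 ± 3.11 to 56.7 ± 11.4 CPM (SD, n = 2 each) by the exact test of edgeR (adjusted p = 5.65e-05) and by DESeq2 (adjusted p = 5.07e-05), with a log2 fold change of 1.96 (SE 0.30). By the quasi-likelihood test the adjusted p was 0.128, and it ran from 1.48e-14 to 0.406 over the alternatives. *EXPA14* (AT5G56320, chromosome 5 from 22808641 to 22810237), whose promoter LBD18 is known to bind, had 25.7 and 36.7 CPM in the WT and 45.7 and 67.4 CPM in the mutant. The genotypes did not overlap, but the gap between WT replicate 2 and *atx1setm* replicate 1 was smaller than the gaps between replicates. Its log2 fold change was 0.86 (SE 0.32), with adjusted p = 0.497 by edgeR's quasi-likelihood test. *EXPA1* (AT1G69530, chromosome 1 from 26141836 to 26143500), active in root growth and LR initiation, had 41.8 and 54.9 CPM in the WT and 77.8 and 100 CPM in *atx1setm*. Here too the mutant libraries were above those of the WT, by 0.88 on the log2 scale (SE 0.27, adjusted p = 0.387 by the quasi-likelihood test).

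Of 8 LR regulators of the *LBD* group and partners, 6 had a higher level with an unadjusted p under 0.05 and 0 a lower one, against 4.93% and 4.78% of all genes tested, and 3 were higher by the exact test adjusted over all genes, against 1.69%. The smallest p belonged to *LBD33* (log2 fold change 3.66, SE 0.53, adjusted p = 0.123 by the quasi-likelihood test) and *LBD29* (2.43, SE 0.36, adjusted p = 0.127). *LBD18* had 2.09 and 2.74 CPM in the WT and 4.74 and 9.43 CPM in *atx1setm*, or 1.55 on the log2 scale (SE 0.44). The median of the list was 1.33 on the log2 scale, while its summed level, set mostly by *ARF7* and *ARF19*, was 178 and 150 CPM in the WT and 176 and 122 CPM in the mutant. Both *LBD29* and *LBD33* had already been named by the study as higher in *atx1setm*, from these same libraries. That they passed here was therefore known in advance. The shares of all genes are thus no independent measure for this list.

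**Figure D3:**
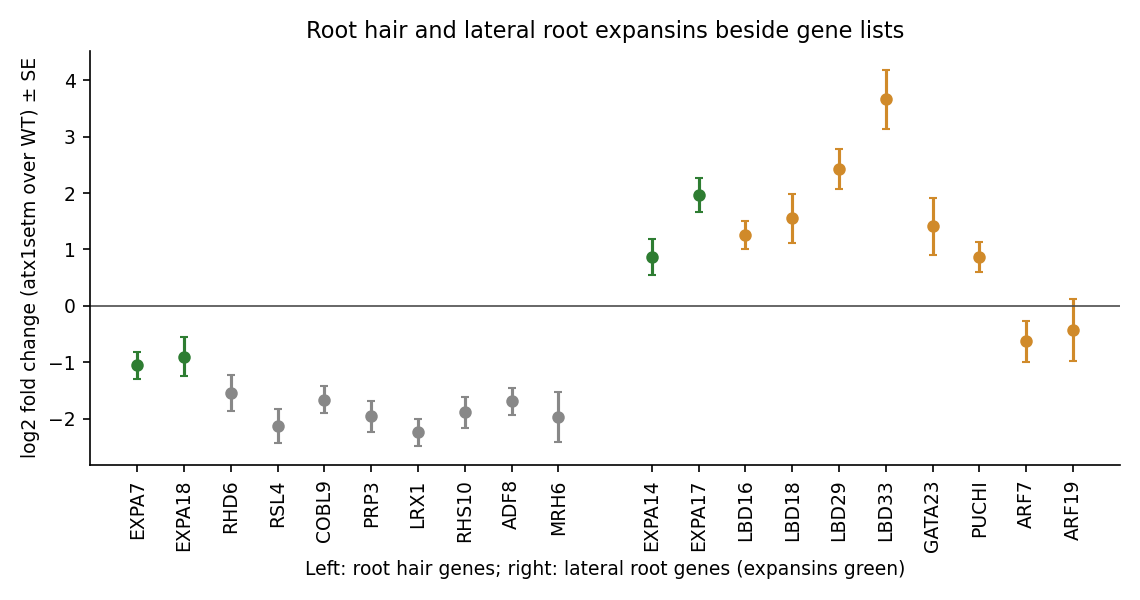
Log2 fold change of *atx1setm* over WT (y axis) for the root hair expansins beside 8 root hair genes, and for *EXPA14* and *EXPA17* beside 8 LR regulators and partners; points are fitted values and bars their SE. *EXPA7* and *EXPA18* lie at −1.05 and −0.90 and the root hair list has its median at −1.92, whereas *EXPA14* and *EXPA17* lie at 0.86 and 1.96 and the LR list has its median at 1.33.

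Among the β-expansins, *EXPB2* rose and the others did not pass a test. *EXPB2* (AT1G65680, chromosome 1 of TAIR10 from 24427266 to 24428399) had 94 and 79 exon reads in the WT and 612 and 281 in *atx1setm*, or 1.91 and 2.03 CPM against 13.1 and 7.30 CPM. The WT libraries were nearly equal, and mutant replicate 1 stood well above mutant replicate 2, the opposite order to *EXPA17*. The log2 fold change of 2.38 (SE 0.39) passed the exact test of edgeR (adjusted p = 8.60e-05) and DESeq2 (adjusted p = 3.53e-05) but not the quasi-likelihood test (adjusted p = 0.145, 2.73e-13 to 0.256 over the alternatives). Its neighbour *EXPB6*, which follows *EXPB2* on the same strand, had 1 and 0 exon reads in the WT and 3 and 1 in *atx1setm*. Its intron reads, 9 and 2 in the WT and 9 and 5 in the mutant, outnumbered its exon reads in every library. *EXPB1* had 21.8 and 35.4 CPM in the WT and 14.1 and 25.8 CPM in *atx1setm*. These overlap between genotypes, and the log2 fold change of −0.52 (SE 0.41, adjusted p = 0.738 by the quasi-likelihood test) does not exceed the spread between replicates. *EXPB3*, the most abundant β-expansin, had 212 and 358 CPM in the WT and 241 and 400 CPM in the mutant, or 0.17 on the log2 scale (SE 0.41). Its replicates differed more than its genotypes did.

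Other α-expansins whose genotypes did not overlap ranged from abundant genes to *EXPA5*, and none of them passed the quasi-likelihood test, the exact test or DESeq2 after adjustment. *EXPA4* (AT2G39700, chromosome 2 of TAIR10 from 16543832 to 16545584) had 212 and 373 CPM in the WT and 476 and 873 CPM in *atx1setm*. Both mutant libraries were above both WT libraries, and replicate 2 was the higher in each genotype, and the difference was 1.21 on the log2 scale (SE 0.47, adjusted p = 0.507 by edgeR's quasi-likelihood test). *EXPA6*, which shares 77.7% of aligned coding bases with *EXPA4*, had 32 and 47.2 CPM in the WT and 63.8 and 110 CPM in the mutant, or 1.13 on the log2 scale (SE 0.37, adjusted p = 0.424 by the same test). *EXPA16*, closer still to *EXPA4* by sequence (81.1%), had 1.18 and 2.15 CPM in the WT and 0.857 and 1.58 CPM in the mutant, which overlap. *EXPA20* had 3.99 and 5.31 CPM in the WT and 6.77 and 18.5 CPM in *atx1setm*. Its fold change rested mainly on mutant replicate 2: the log2 fold change of 1.44 (SE 0.54, adjusted p = 0.492 by the same test) was 0.56 without that library. *EXPA9* had 59.5 and 84.5 CPM in the WT and 95.0 and 172 CPM in the mutant, and *EXPA13* had 23.9 and 29.2 CPM in the WT and 31.7 and 48.3 CPM in the mutant. Neither passed an unadjusted p of 0.05 in edgeR's quasi-likelihood test, although in both the mutant libraries were the higher. In all, the mutant libraries were above the WT libraries for 10 of 26 expansins (38.5%) and for 19.6% of all genes. The lowest of these by level, *EXPA5*, had 9 and 3 reads in the WT and 11 and 14 in the mutant.

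The remaining α-expansins overlapped between genotypes. *EXPA15* had 76.3 and 141 CPM in the WT and 96.9 and 203 CPM in *atx1setm*, so that WT replicate 2 lay above mutant replicate 1. *EXPA10*, an expansin of leaf growth, had 9.49 and 20.1 CPM in the WT and 10.1 and 20.1 CPM in the mutant, nearly the same pair of values in each genotype. *EXPA8* had 7.48 and 15.3 CPM in the WT and 11 and 21.1 CPM in the mutant. *EXPA11* had 18.4 and 25.0 CPM in the WT and 20.9 and 35.8 CPM in the mutant. In these 4 genes the difference between replicates was as large as or larger than that between genotypes, and their log2 fold changes were 0.03 to 0.49. The low genes *EXPA3* (1.35 to 3.26 CPM over the 4 libraries), *EXPA12* (0.750 to 1.51 CPM) and *EXPA21* (0.333 to 0.386 CPM) had log2 fold changes of −0.47, 0.53 and 0.05, all with an unadjusted p above 0.05.

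The expansin-like genes did not separate by genotype. *EXLA1* had 64.3 and 19.7 CPM in the WT and 64 and 24.5 CPM in *atx1setm*. Replicate 1 was thus about as high in each genotype, and replicate 2 was low in each. *EXLA3*, its neighbour on chromosome 3, had 29.9 and 16.9 CPM in the WT and 33.0 and 15.6 CPM in the mutant, the same order. The coding sequences of these neighbours share 86.6% of aligned bases. *EXLA2*, which lies on chromosome 4 and affects hypocotyl wall mechanics when overexpressed, had 15.8 and 18.3 CPM in the WT and 16.2 and 17.5 CPM in the mutant. It was even across libraries, with a log2 fold change of −0.01 (SE 0.23, or −0.12 to 0.11 with each library left out). *EXLB1* had 8.07 and 11.3 CPM in the WT and 10.2 and 25.0 CPM in *atx1setm*. Only mutant replicate 2 stood apart, and the log2 fold change of 0.86 (SE 0.49) became 0.09 without it.

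Between subfamilies, the order of the median shifts depended on single libraries. The median log2 fold change was 0.53 for the 19 α-expansins, 0.17 for the 3 β-expansins and 0.06 for the 3 *EXLA* genes, beside −0.01 for all genes tested. Without *atx1setm* replicate 2 the median of the α-expansins was 0.16, below the 0.52 of the *EXLA* genes, and without WT replicate 1 it was 0.45, again below 0.52. Without *atx1setm* replicate 1 it was 0.90. The medians of the β-expansins and *EXLA* genes changed sign with the library left out, from −0.23 to 0.60 and from −0.59 to 0.52. At an unadjusted p under 0.05, 6 of 19 α-expansins were higher (31.6%) and 2 lower (10.5%) by the quasi-likelihood test, against 4.93% and 4.78% of all genes tested. By the exact test and by DESeq2, 7 were higher (36.8%). Of 3 β-expansins, 1 was higher (33.3%) by each of these tests, and of the 4 expansin-like genes 0 passed any of them in either direction. The difference between subfamilies was not tested, since members of a family are not replicates of a condition.

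Summed per length, α-expansins took 61.7% and 67.0% of the expansin level in the WT and 71.0% and 77.4% in *atx1setm*, without overlap. This shift lay in *EXPA4*, which alone took 20.5% and 25.2% in the WT and 31.2% and 36.0% in the mutant. The 24 other α-expansins together took 41.2% and 41.8% in the WT and 39.8% and 41.4% in the mutant, a mean difference of −0.933 percentage points. Their summed level was 319 and 464 RPKM in the WT and 453 and 751 RPKM in *atx1setm*, which overlap. β-Expansins took a smaller share in the mutant, 18.4% and 18.3% against 23.5% and 27.4%, but their summed level was not lower, with 181 and 304 RPKM in the WT and 210 and 333 RPKM in the mutant. *EXLA* genes took 13.9% and 4.72% in the WT and 9.70% and 3.05% in the mutant, and here the replicates differed more than the genotypes. *EXPA17* took 2.08% and 1.96% in the WT and 5.56% and 4.64% in the mutant. The summed level of all expansins was 773 and 1110 RPKM in the WT and 1140 and 1810 RPKM in *atx1setm*, so that WT replicate 2 and mutant replicate 1 were almost level.

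**Figure D4:**
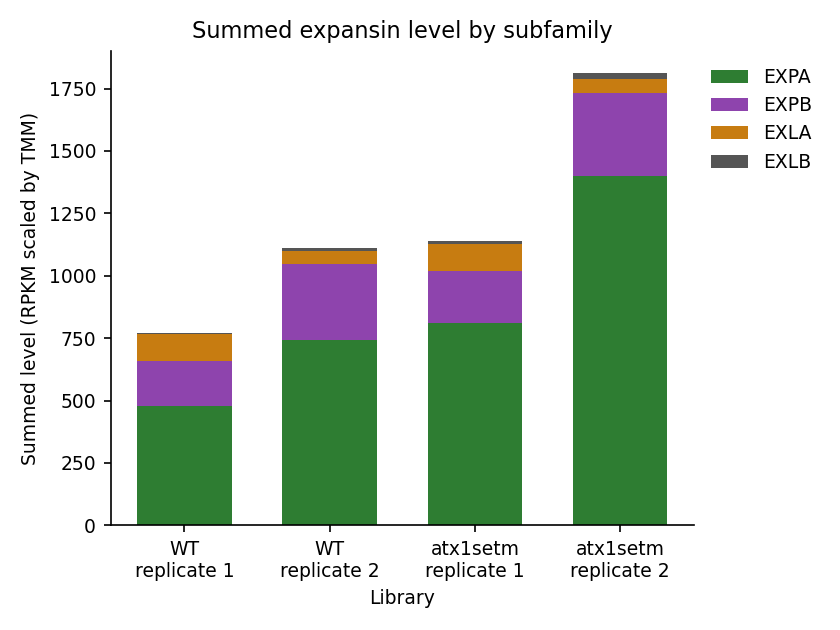
Summed expansin level by subfamily (stacked bars, RPKM scaled by TMM) in each of the 4 libraries, each bar being 1 library. The total runs from 773 RPKM in WT replicate 1 to 1810 RPKM in *atx1setm* replicate 2, and the *EXPA* part from 477 to 1400 RPKM.

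Much of the variation among members ran between replicates and not between genotypes. Replicate 2 was above replicate 1 in both genotypes for 21 of 26 expansins (80.8%), against 40.8% of all genes tested, and for 17 of 19 α-expansins (89.5%). The median log2 ratio of replicate 2 to replicate 1 was 0.44 in the WT and 0.78 in the mutant for the α-expansins, and 0.70 and 0.73 for the β-expansins. For all genes with reads in every library it was 0.00 in the WT and 0.03 in the mutant. The opposite order was seen in 3 members (11.5%, against 39.7% of all genes): *EXLA1*, with ratios of −1.71 in the WT and −1.39 in the mutant, *EXLA3*, with −0.82 and −1.09, and *EXPA21*, with −0.13 and −0.19. No source says what the replicate numbers share, and the part in this order of the green shoot markers, also higher in replicate 2 of each genotype, was not tested. *EXPA7* (0.16 and 0.18) and *EXLA2* (0.21 and 0.11) varied little between replicates.

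**Figure D5:**
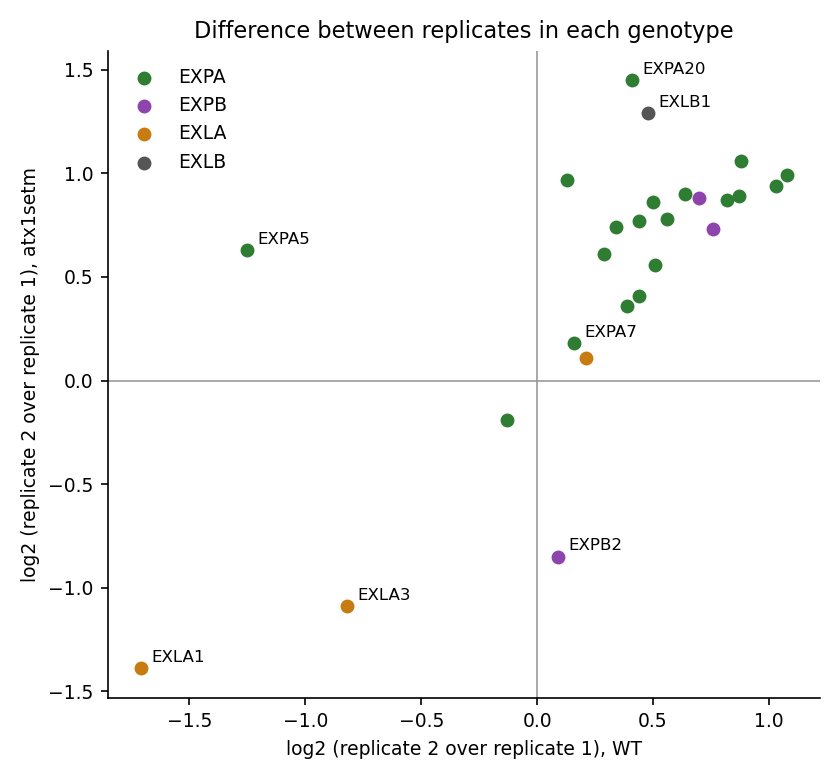
Log2 ratio of replicate 2 to replicate 1 in the WT (x axis) and in *atx1setm* (y axis), each point 1 tested expansin gene, coloured by subfamily. Most α-expansins lie in the upper right, *EXLA1* (−1.71 and −1.39) and *EXLA3* in the lower left, and *EXPB2* at 0.09 and −0.85.

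Among tested genes that set the acidity at which expansins work, only *AHA7* had an unadjusted p under 0.05 by the quasi-likelihood test. A single call among 10 tested pumps says little about the pumps as a group. Of 11 plasma membrane proton pump genes, 10 were tested, and at an unadjusted p under 0.05 the calls were 0 higher and 1 lower (10 genes, against 4.93% and 4.78% of all genes tested), with a median log2 fold change of −0.22. The gene that was lower, *AHA7*, had 55.7 and 50.0 CPM in the WT and 23.8 and 11.7 CPM in *atx1setm*. It fell by the exact test of edgeR (adjusted p = 0.0249, a test that called 2.23% of all genes lower) and by DESeq2 (adjusted p = 0.0135), with a log2 fold change of −1.58 (SE 0.40). By the quasi-likelihood test its adjusted p was 0.293, and it ran from 1.77e-10 to 0.532 over the alternatives. *AHA11* came next by p, with −0.56 (SE 0.24, adjusted p = 0.556). *AHA2*, the main pump of root cells, had 1770 and 2710 CPM in the WT and 2010 and 2690 CPM in the mutant, again with replicate 2 the higher. Of 9 PP2C.D phosphatases, which restrain the pumps, 0 passed an unadjusted p of 0.05 or the exact test in either direction, and the median was 0.08. The smallest p there belonged to *PP2C.D3*, with a log2 fold change of 0.46 (SE 0.24), and *PP2C.D8*, with −0.43 (SE 0.51). The 6 genes of the *SAUR19* group, which block these phosphatases, had too few reads to be tested.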

How the data were processed

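RNA from whole roots of the WT (Ws) and *atx1setm*, 2 biological replicates each, was read single-end for 50 cycles. After trimming and a FastQC check (named in the submitters' processing notes), the authors aligned reads to TAIR10 and counted by gene with CLC Genomics Workbench. How strand was handled is not given in the sources used here, and reads from overlapping antisense genes may have been mixed. The deposited table of 87 columns holds raw exon, intron and gene read counts by the authors, uniquely mapped reads only, and the authors' RPKM, scaled by exon length and mapped reads. Another 57 columns of single libraries were left unused, and the columns with the authors' own comparison (p-value, fold change, FDR) were left out.

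Exon reads were filtered with filterByExpr of edgeR (20714 genes), scaled by TMM (factors 1.06 and 1.01 for the WT, 1.09 and 0.855 for *atx1setm*) and compared by edgeR 4.0.16's quasi-likelihood test with the legacy fit in R 4.3.3, without a covariate, with Benjamini-Hochberg adjustment over all genes tested. The SE of a log2 fold change was obtained from the F statistic. The tests were also run on simulated counts drawn independently for each library. That setting lacks the deviation shared by libraries with the same replicate number, so it cannot show how reliable the p-values are here. The alternatives tried were edgeR's exact test, DESeq2 1.42.0, a block on replicate number, RLE factors, library totals without TMM, other filters (none, or 10 counts in each library), reads of whole genes, limma-trend (limma 3.58.1) on log2 RPKM with 0.5 or 0.1 added, and omission of each library. Members, lists and tests were chosen with earlier results of these data known. Every member is named, with up to 2 members with the smallest p from each list used, while other genes were picked with their values in view. Of the xylem list, 0 of 5 genes were higher or lower at an unadjusted p under 0.05 by the quasi-likelihood test and 0 by the exact test, and *CESA4* (log2 fold change −0.26) and *XCP1* (0.35) had the smallest p. Of the 7 root tissue genes, 1 was higher (*WOX5*, 1.46, also by the exact test) and 1 lower (*PLT1*, −0.80, not by the exact test), and of the green shoot list, *RBCS1B* (1.42) and *LHCA1* (−0.52) had the smallest p, with 0 of 7 shoot genes past either test.

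Promoters, coding sequences and unique 50-base windows were read from RefSeq (TAIR10.1), in which all 36 loci were found, and pairs of coding sequences were aligned globally with Biopython 1.88. Gene coordinates of the table are given 1-based in TAIR10. Intervals and floors cover counting error only.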

Additional observations from a re-analysis of the deposited data

Results flagged for a closer look

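Intron reads, which the tests on exon reads did not use, were a higher share of gene reads in both mutant libraries than in both WT libraries for *EXPA15* and *EXPA11*. This was by a limit of 10 intron reads in each mutant library, set after the data were seen. In *EXPA15* they were 2 and 6 reads in the WT (0.0531% and 0.109%) and 10 and 18 reads in *atx1setm* (0.221% and 0.230%), a mutant mean of 0.225%. In *EXPA11* they were 13 and 9 reads in the WT (1.41% and 0.915%) and 14 and 20 reads in the mutant (1.41% and 1.43%), a mean of 1.42%, so that WT replicate 1 was almost level with the mutant. These shares rest on few reads and were not tested.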

How the results depend on the processing

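With adjusted p-values, edgeR's quasi-likelihood test had 0 expansins higher and 0 lower. With DESeq2 and with the exact test the higher count was 2, and with a replicate block it was 9 (*EXPA1*, *EXPA4*, *EXPA6*, *EXPA9*, *EXPA14*, *EXPA17*, *EXPA20*, *EXPB2* and *EXLB1*), with 2 lower (*EXPA7* and *EXPA18*). Leaving out 1 library gave 0 to 10 higher, the most without *atx1setm* replicate 1, and 0 to 2 lower. At an unadjusted p under 0.05 the 7 higher became 11 with the block and 2 to 13 with 1 library left out, and the 2 lower became 0 to 3. The block assumes that the same replicate number marks a shared batch, which no source states. Across genes, libraries with the same number deviated together (correlation 0.71), and with 2 pairs this is only a hint from the data. Other normalizations, filters, gene reads and limma-trend left both adjusted counts at 0. A direction reversed in some alternative for 11 of 26 members, and none of the 9 members past an unadjusted p of 0.05 was among them. *EXPA10* was −0.10 under library totals and −0.06 under limma-trend with 0.5 or 0.1 added, *EXPA21* was −0.04, −0.02 and −0.04 in these 3, and *EXLA3* was −0.09 with limma-trend. With 1 library left out, log2 fold changes ran from −0.03 to 1.11 for *EXPA8*, −0.53 to 0.68 for *EXPA10*, −0.04 to 0.72 for *EXPA11*, −0.01 to 0.94 for *EXPA12*, −0.15 to 0.98 for *EXPA15*, −0.93 to 0.06 for *EXPA16*, −0.05 to 0.16 for *EXPA21*, −0.23 to 0.60 for *EXPB3*, −0.78 to 1.16 for *EXLA1*, −0.12 to 0.11 for *EXLA2* and −0.59 to 0.52 for *EXLA3*. The cause was not tested. Library totals put the median of all genes at −0.10 in place of −0.01. The share of the expansin level held by α-expansins was 9.87 percentage points higher in the mutant (6.70 to 13.0 with 1 library left out), that of *EXPA4* alone 10.8 points higher, and that of *EXLA* genes differed by −2.94 points, or 1.65 and 0.387 points without WT replicate 1 and without *atx1setm* replicate 2.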

Other observations

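The root hair-specific element marked in the promoters of *EXPA7* and *EXPA18* was also looked up in all genes tested, a look taken after the values of these genes were seen. Of 154 tested genes with a match in the 250 bases before the start, 30 were lower in *atx1setm* at an unadjusted p under 0.05 of the quasi-likelihood test (19.5%, against 4.78% of all genes tested) and 7 were higher (4.55%, against 4.93%). Without the expansins, 28 of 152 were lower (18.4%) and 7 higher (4.61%), with a median log2 fold change of −0.20, beside −0.01 for all genes. These are counts of matches in a fixed window, and no test was run on them. The element is known from root hair genes, several of which the study had already listed as lower, from these same libraries. How many of the matching genes are root hair genes was not counted, so the shares of all genes are no independent measure here.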
